A study of Homo sapiens with 14 samples.

Results

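The endoplasmic reticulum unfolded protein response was described here through 34 genes, taken by symbol from a list of its sensors, transcription factors, chaperones and degradation factors. All 34 genes were present both in the DU145 table of 24199 features and in the LNCaP table of 44591 genes. They were divided into an ATF6/XBP1 arm of 30 genes and a PERK arm of 4 genes. The PERK arm comprised the kinase gene *EIF2AK3*, the transcription factor genes *ATF4* and *DDIT3*, and the phosphatase subunit gene *PPP1R15A*.

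Proteins that enter the secretory pathway fold in the lumen of the endoplasmic reticulum, where the chaperone BiP and the disulfide isomerases act on them. When unfolded proteins accumulate, the membrane sensors IRE1 (encoded by *ERN1*), PERK (*EIF2AK3*) and ATF6 signal to the nucleus and to the ribosome. IRE1 splices *XBP1* mRNA, ATF6 is cleaved into a transcription factor, and both raise chaperone and degradation genes, while PERK phosphorylates eIF2alpha, which slows translation and favours synthesis of ATF4. Prostate epithelial cells are secretory, and their luminal cells pass large amounts of protein through this compartment.

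Transcriptomes of 2 human prostate cancer lines were compared. The line LNCaP was sequenced as an untreated control and as LNCaP-ENZ, an enzalutamide-resistant subline kept in 20 µM of this antiandrogen drug, with 1 library per arm. The line DU145 was sequenced with a non-target control shRNA (shCON, 3 libraries) and after stable lentiviral knockdown of *PAX6* (shPAX6, 3 libraries). The DU145 lines were puromycin-selected subclones, the methods name 2 *PAX6* hairpins, and the labels do not say which hairpin a library carried or whether libraries came from separate cultures. P-values for DU145 therefore measure the spread between libraries, which may be technical, and the LNCaP comparison has no replicate check.

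Elements bound by ATF6 and XBP1 were looked for in the promoters of the members. RefSeq promoter windows (GRCh38.p14, 250 bases before to 50 bases after each start site) were found for 31 of the 34 genes. Both strands were searched for the endoplasmic reticulum stress element ERSE, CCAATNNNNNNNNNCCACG, in which CCAAT is bound by NF-Y and CCACG by ATF6 or XBP1, and for ERSE-II, ATTGGNCCACG. Only exact matches were counted, so copies that depart from these letters were left out. ERSE was present in 7 of 27 genes of the ATF6/XBP1 arm (25.9%), against 25 of 27305 genes with a window (0.0916%). ERSE-II was present in 3 of 27 (11.1%), against 0.0696% of all genes. The arm was named for ATF6 and XBP1 and the elements are sites of these factors, so the shares describe the list and test nothing. None of the 4 PERK arm genes held an exact match to either element in its window. The *DDIT3* window held ccaatgccggcgtgccact, which departs from ERSE in its last letter only. With so few genes the arms were not tested against each other. The 7 genes with ERSE were *XBP1*, *HSPA5*, *HSP90B1*, *CRELD2*, *CALR*, *CANX* and *PDIA6*, and the 3 genes with ERSE-II were *HYOU1*, *SDF2L1* and *HERPUD1*. The shorter XBP1 element core TGACGTGG was found in *HYOU1* alone (0.927% of all genes held it), where it overlapped an ERSE-II. The ATF4 element core TGATGNAAT was found in none of the 31 genes (1.22% of all genes). It was also found in none of 17 ATF4 and integrated stress response targets with a window. The search therefore does not tell whether the members lack ATF4 sites.

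The promoters of *HSPA5*, *HSP90B1*, *XBP1* and *HYOU1* are shown because they carry the elements and belong to the genes on which the expression results turn. The 250 bases before the start site are given 5′ to 3′ on the gene's strand, and capitals mark ERSE, ERSE-II or the XBP1 element core. The windows are *HSPA5* at chr9:125241344-125241593 (minus strand), *HSP90B1* at chr12:103930160-103930409 (plus strand), *XBP1* at chr22:28800570-28800819 (minus strand) and *HYOU1* at chr11:119057206-119057455 (minus strand).
HSPA5: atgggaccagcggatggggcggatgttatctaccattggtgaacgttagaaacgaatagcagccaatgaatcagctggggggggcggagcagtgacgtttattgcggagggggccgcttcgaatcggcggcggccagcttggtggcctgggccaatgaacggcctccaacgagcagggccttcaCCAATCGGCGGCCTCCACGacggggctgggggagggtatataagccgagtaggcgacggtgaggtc
HSP90B1: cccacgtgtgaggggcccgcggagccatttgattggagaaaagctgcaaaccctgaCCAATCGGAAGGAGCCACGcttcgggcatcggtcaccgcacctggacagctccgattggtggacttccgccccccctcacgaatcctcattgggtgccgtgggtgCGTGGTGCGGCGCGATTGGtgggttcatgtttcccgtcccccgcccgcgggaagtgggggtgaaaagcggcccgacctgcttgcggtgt
XBP1: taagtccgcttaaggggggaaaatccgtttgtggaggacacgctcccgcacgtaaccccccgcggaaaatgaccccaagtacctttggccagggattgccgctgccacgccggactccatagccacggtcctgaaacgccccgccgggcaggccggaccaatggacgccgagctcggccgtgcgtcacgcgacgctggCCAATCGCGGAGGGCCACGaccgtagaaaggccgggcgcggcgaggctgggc
HYOU1: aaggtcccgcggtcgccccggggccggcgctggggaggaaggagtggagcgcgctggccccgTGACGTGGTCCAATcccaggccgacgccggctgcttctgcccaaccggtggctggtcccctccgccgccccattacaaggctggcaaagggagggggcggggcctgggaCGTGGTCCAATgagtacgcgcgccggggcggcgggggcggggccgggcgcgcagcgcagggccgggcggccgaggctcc
By exact match, *HSPA5* held 1 ERSE that began 66 bases before the start, and *XBP1* held 1 that began 52 bases before it. *HSP90B1* held 2 copies, 194 bases before the start on the gene's strand and 89 bases before it on the opposite strand. *HYOU1* held 2 copies of ERSE-II, both on the opposite strand, 185 and 79 bases before the start. *SEL1L* encodes the scaffold of the HRD1 degradation complex and gave the largest negative fold change of the 33 genes tested in DU145. Its window held no exact match to the elements. It held cgtggtccaac, which departs from ERSE-II on the opposite strand in its last letter only. The window at chr14:81533854-81534103 (minus strand) is shown here for comparison.
SEL1L: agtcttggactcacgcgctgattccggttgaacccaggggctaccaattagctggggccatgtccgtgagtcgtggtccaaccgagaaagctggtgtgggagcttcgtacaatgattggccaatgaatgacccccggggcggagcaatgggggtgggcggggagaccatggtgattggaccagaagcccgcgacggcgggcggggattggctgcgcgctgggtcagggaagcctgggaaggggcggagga

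Levels of the 34 genes were ordered alike in both lines, with abundant chaperones and isomerases near the top and the sensors near the bottom. Length-scaled values (FPKM, fragments per kilobase scaled to library size) in shCON and TPM, the equivalent for transcripts, in the LNCaP control gave a Spearman rho of 0.85 across the 34 genes, as a description of 2 tables normalised separately. *CALR*, the lectin chaperone calreticulin, had the highest level of the 34 in both, at 453 ± 21.1 FPKM (SD, n = 3) in shCON and 1053 TPM in the LNCaP control. *P4HB*, a disulfide isomerase, reached 445 ± 13.1 FPKM and 251 TPM, so that its shCON libraries overlapped those of *CALR*, and *HSPA5*, which encodes BiP, 233 ± 12.3 FPKM and 175 TPM. *EIF2AK3* stood at 1.84 ± 0.444 FPKM and 2.51 TPM, and *ERN1* at 2.65 ± 0.404 FPKM and 5.22 TPM. *DERL3*, a derlin, was the only member under the expression minimum in DU145 (mean of 0.5 FPKM), with shCON values of 0.130, 0.702 and 0.421 FPKM and shPAX6 values of 0.702, 0.349 and 0.440 FPKM, and it was not tested there.

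Identity and quality of the libraries were examined first. *PAX6* was at 0.839, 1.23 and 1.57 FPKM in shCON and at 0.0153, 0.274 and 0.0778 FPKM in shPAX6, and at 11 and 4 counts in LNCaP control and LNCaP-ENZ. The prostate marker *KLK3* gave 1817 and 1186 counts in the LNCaP libraries and at most 0.058 FPKM in DU145, whereas *VIM* reached 971 to 1685 FPKM in DU145. Of 7 markers of immune, stromal and endothelial cells, 2 reached 0.5 FPKM in a DU145 library, *PTPRC* and *CD3E* were listed at 0 in all 6, and the summed level was 36.4 to 39.3 FPKM in shCON and 25.1 to 27.0 FPKM in shPAX6, mostly *CD68*. In LNCaP, 5 of the 7 had over 3 counts, their sum was 20.5 TPM in control and 16.8 TPM in LNCaP-ENZ, and *VWF* gave 345 and 27 counts. The part of these markers in the results was not tested. Library totals were 20468001 and 17945722 counts in LNCaP, while the depth of the DU145 libraries is unknown.

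In DU145, none of the 33 tested genes passed the adjusted threshold of 0.05 with limma on log2(FPKM + 0.1), where 1.20% of all 13574 features did. The unfolded protein response genes were spread around no change, with 18 positive and 15 negative fold changes and a median log2 fold change of 0.04, beside a median of -0.12 over all features. The arms differed in their medians, 0.003 for the ATF6/XBP1 arm and 0.45 for the PERK arm of 4 genes, a difference that was not tested. At an unadjusted p under 0.05, 4 members were higher in shPAX6 (*DNAJB9*, *HSP90B1*, *PPP1R15A* and *DDIT3*; 4.15% of features) and 1 was lower (*SEL1L*; 14.1% of features).

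The 3 shPAX6 libraries lay entirely above the 3 shCON libraries for 7 members (6.70% of all features) and entirely below for 4 members (20.0% of all features). The 7 were *HSP90B1*, *DNAJB9*, *PDIA3*, *DERL2*, *ATF4*, *DDIT3* and *PPP1R15A*, and the 4 were *SEL1L*, *HYOU1*, *PDIA4* and *XBP1*. With 3 libraries against 3 the exact permutation test of a single gene cannot go below p = 0.1. For 14 of the 33 genes, shPAX6 libraries fell on both sides of the shCON range.

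**Figure D1:**
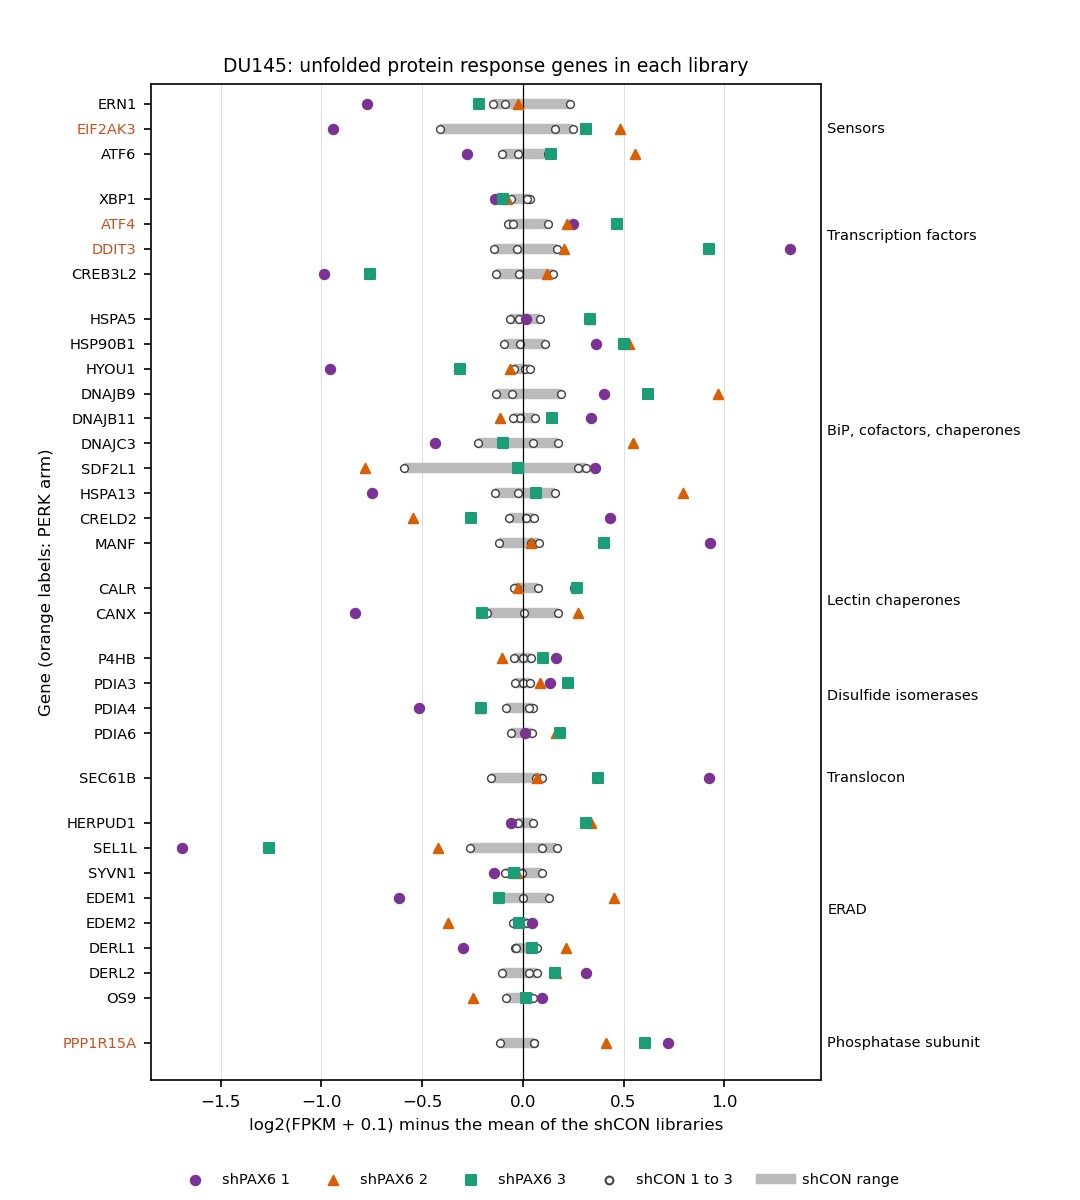
Each DU145 library is plotted for the 33 tested genes as log2(FPKM + 0.1) minus the mean of the 3 shCON libraries, with the shCON range as a grey bar, shCON libraries as open circles and shPAX6 libraries 1, 2 and 3 as circles, triangles and squares. For 14 genes the shPAX6 libraries lie on both sides of the grey bar, and for *SEL1L*, *HSP90B1*, *DNAJB9* and *PPP1R15A* all 3 lie on one side.

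Among the sensors, no member separated the groups. *ERN1* was at 2.47, 2.36 and 3.11 FPKM in shCON and 1.495, 2.58 and 2.25 FPKM in shPAX6 (log2 fold change -0.34 ± 0.26 SE). *ATF6* was at 4.68, 3.98 and 4.21 FPKM in shCON and 3.52, 6.34 and 4.73 FPKM in shPAX6 (0.14 ± 0.24). *EIF2AK3* was at 2.02, 1.33 and 2.16 FPKM in shCON and 0.889, 2.55 and 2.26 FPKM in shPAX6 (-0.05 ± 0.41). In all 3 sensor genes the lowest of the 6 libraries was shPAX6 1, and for *ATF6* and *EIF2AK3* the highest was shPAX6 2.

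*XBP1*, the transcription factor downstream of IRE1, was at 48.3, 51.6 and 51.0 FPKM in shCON and at 45.6, 47.6 and 46.9 FPKM in shPAX6. These libraries did not overlap, but the distance was small, at -0.11 on the log2 scale (95% interval -0.37 to 0.15) and 0.069 with the other sign after median centring, and its splicing cannot be read from values per gene. *CREB3L2*, a membrane-bound factor of the same family as ATF6, was at 4.36, 4.02 and 4.91 FPKM in shCON and at 2.17, 4.80 and 2.57 FPKM in shPAX6. Its shPAX6 libraries 1 and 3 were below and shPAX6 2 inside the shCON range.

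The chaperones of the ATF6/XBP1 arm gave 7 positive and 3 negative fold changes over 10 genes. *HSP90B1*, which encodes the luminal HSP90 paralogue GRP94, was at 137, 119 and 126 FPKM in shCON and 163, 183 and 179.6 FPKM in shPAX6. All 3 shPAX6 libraries exceeded every shCON library, by 0.47 ± 0.12 (SE) on the log2 scale (limma adjusted p = 0.116). *DNAJB9*, a BiP cochaperone that also restrains IRE1, was at 3.68, 3.10 and 2.92 FPKM in shCON and 4.29, 6.40 and 5.01 FPKM in shPAX6. The groups were again apart, by 0.66 ± 0.21 on the log2 scale (limma adjusted p = 0.173).

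BiP itself did not separate the groups. *HSPA5* was at 247, 229.9 and 223 FPKM in shCON and at 235, 294 and 294 FPKM in shPAX6, a log2 fold change of 0.23 (95% interval -0.10 to 0.56). Libraries 2 and 3 of shPAX6 lay above the shCON range and library 1 inside it. *HYOU1*, the BiP nucleotide exchange factor, went the other way, at 84.2, 81.1 and 85.6 FPKM in shCON and 43.0, 80.0 and 67.3 FPKM in shPAX6 (log2 fold change -0.45, adjusted p = 0.350). The nearest libraries, 81.1 FPKM of shCON and 80.0 FPKM of shPAX6, were almost level. *DNAJC3*, an inhibitor of PERK and BiP cochaperone, was at 4.57, 3.44 and 4.20 FPKM in shCON and 2.96, 5.94 and 3.76 FPKM in shPAX6, and *HSPA13* at 16.0, 13.0 and 14.1 FPKM and 8.49, 24.9 and 15.0 FPKM, so both were lowest in shPAX6 1 and highest in shPAX6 2. *MANF*, a secreted cytoprotective factor of the response, was highest in shPAX6 1, at 104, 55.9 and 71.8 FPKM in shPAX6 against 50.1 to 57.4 FPKM in shCON.

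Lectin chaperones and disulfide isomerases had small differences. *CANX*, which encodes calnexin, was at 159.7, 125 and 142 FPKM in shCON and 79.3, 171 and 123 FPKM in shPAX6, and *CALR* gave a log2 fold change of 0.17 ± 0.14. Of the 4 isomerases, *PDIA3* was at 113, 115 and 109.7 FPKM in shCON and 124, 119 and 132 FPKM in shPAX6 (0.15 ± 0.11). The shPAX6 libraries of *PDIA3* were all above the shCON libraries. *PDIA4* was at 134, 132 and 122 FPKM in shCON and 90.4, 111 and 112 FPKM in shPAX6 (-0.31 ± 0.14, adjusted p = 0.279), all below. *P4HB* and *PDIA6* gave 0.05 and 0.12 with overlapping groups.

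Among the degradation factors, *SEL1L* stood apart. It was at 8.27, 6.41 and 8.68 FPKM in shCON and at 2.32, 5.74 and 3.16 FPKM in shPAX6, which was -1.13 ± 0.33 on the log2 scale (limma adjusted p = 0.139). Every shPAX6 library was below every shCON library, and shPAX6 2 was the nearest. Its partner *SYVN1*, the HRD1 ubiquitin ligase, gave -0.07 ± 0.13 with overlapping groups. *DERL2*, a derlin of the same channel, was at 15.6, 16.1 and 14.2 FPKM in shCON and 19.0, 17.2 and 17.1 FPKM in shPAX6 (0.21 ± 0.13), so its groups were apart in the other direction. The other 5 tested degradation genes, *HERPUD1*, *EDEM1*, *EDEM2*, *DERL1* and *OS9*, lay between -0.11 and 0.20 with overlapping groups. *SEC61B*, a subunit of the translocon, was at 228, 126 and 156 FPKM in shPAX6 and at 128, 126 and 108 FPKM in shCON (0.46 ± 0.22).

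In the PERK arm, 3 of the 4 genes had all shPAX6 libraries above all shCON libraries, where 6.70% of all features did. *ATF4*, the factor whose mRNA is translated when eIF2alpha is phosphorylated, was at 289, 295 and 332 FPKM in shCON and at 362, 354 and 421 FPKM in shPAX6 (log2 fold change 0.31 ± 0.14, adjusted p = 0.293). *DDIT3*, its target CHOP, was at 7.41, 9.25 and 8.05 FPKM in shCON and at 20.7, 9.45 and 15.7 FPKM in shPAX6 (0.82 ± 0.28, adjusted p = 0.194). *PPP1R15A*, which encodes GADD34 and directs dephosphorylation of eIF2alpha, was at 43.9, 43.9 and 39.0 FPKM in shCON and at 69.6, 56.2 and 64.2 FPKM in shPAX6 (0.58 ± 0.13, limma adjusted p = 0.0875). The groups of *PPP1R15A* were well separated, whereas shPAX6 2 of *DDIT3* exceeded the highest shCON library by a small margin. *DDIT3* overlaps *MARS1* and *MBD6* on the other strand and a protein-coding gene without a symbol on its own strand. The strand setting of the counting is not given in the sources used here.

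**Figure D2:**
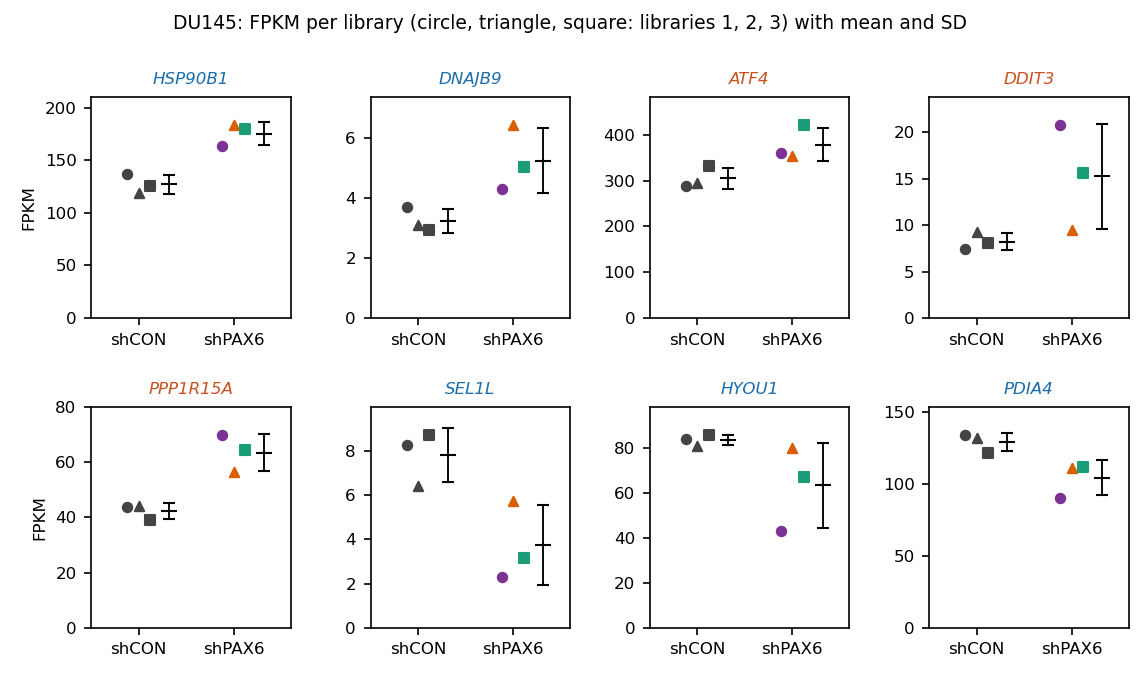
FPKM in each DU145 library (circle, triangle and square for libraries 1, 2 and 3) with the group mean and SD beside them for 8 genes whose groups do not overlap, on axes that start at 0. In *DDIT3* and *HYOU1* the shPAX6 2 library sits next to the shCON libraries, at 9.45 and 80.0 FPKM.

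The calls in DU145 depended on how the libraries were treated. Without shPAX6 1, 3 members passed with limma (*HSP90B1*, *PPP1R15A* and *DNAJB9*), and without shPAX6 2, 4 members passed (*PPP1R15A*, *SEL1L*, *CREB3L2* and *DDIT3*), so that *PPP1R15A* was common to both. The share of all features that passed was 6.78% and 6.63% in these fits, against 1.20% with every library. The shPAX6 libraries differed from one another in transcript length and GC content: among the 33 genes, the 15 below the shCON range in shPAX6 1 had a median transcript length of 5513 bases against 2515.5 bases for the 16 above it, and the 10 genes below it in shPAX6 2 had a median GC content of 54.1% against 43.1% for the 17 above it. The part of length and GC content in single results was examined through corrections fitted over all features. After the GC correction *PPP1R15A* (0.89) and *SEL1L* (-1.13) passed, with adjusted p-values of 0.0300 and 0.0368, where 1.85% of all features passed. Only *SEL1L* was then lower without overlap (13% of features), while *HYOU1* (-0.17), *PDIA4* (-0.07) and *XBP1* (-0.08) overlapped. On the higher side 12 members were without overlap (14.9% of features), and *PDIA3* and *DERL2* were no longer among them.

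In LNCaP, 8 of the 34 genes were past 1.5-fold and all 8 were lower in LNCaP-ENZ, on counts scaled to the library total (CPM) with a minimum mean of 1 CPM. Over all 14767 genes, 24.1% were past this fold on the lower side and 6.49% on the higher side, where no member fell. The 8 were *HSP90B1*, *DNAJC3*, *SEL1L*, *PDIA4*, *CANX*, *HSPA5*, *HSPA13* and *DDIT3*. The median log2 ratio was -0.26 in both arms, beside -0.15 over all genes. Below 0 were 26 members and above it 8, which became 20 and 14 with TMM scaling and 30 and 4 with TPM. Intervals given below are exact 95% binomial (Clopper-Pearson) intervals of the split of counts, which cover counting error only and say nothing of the spread between cultures.

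**Figure D3:**
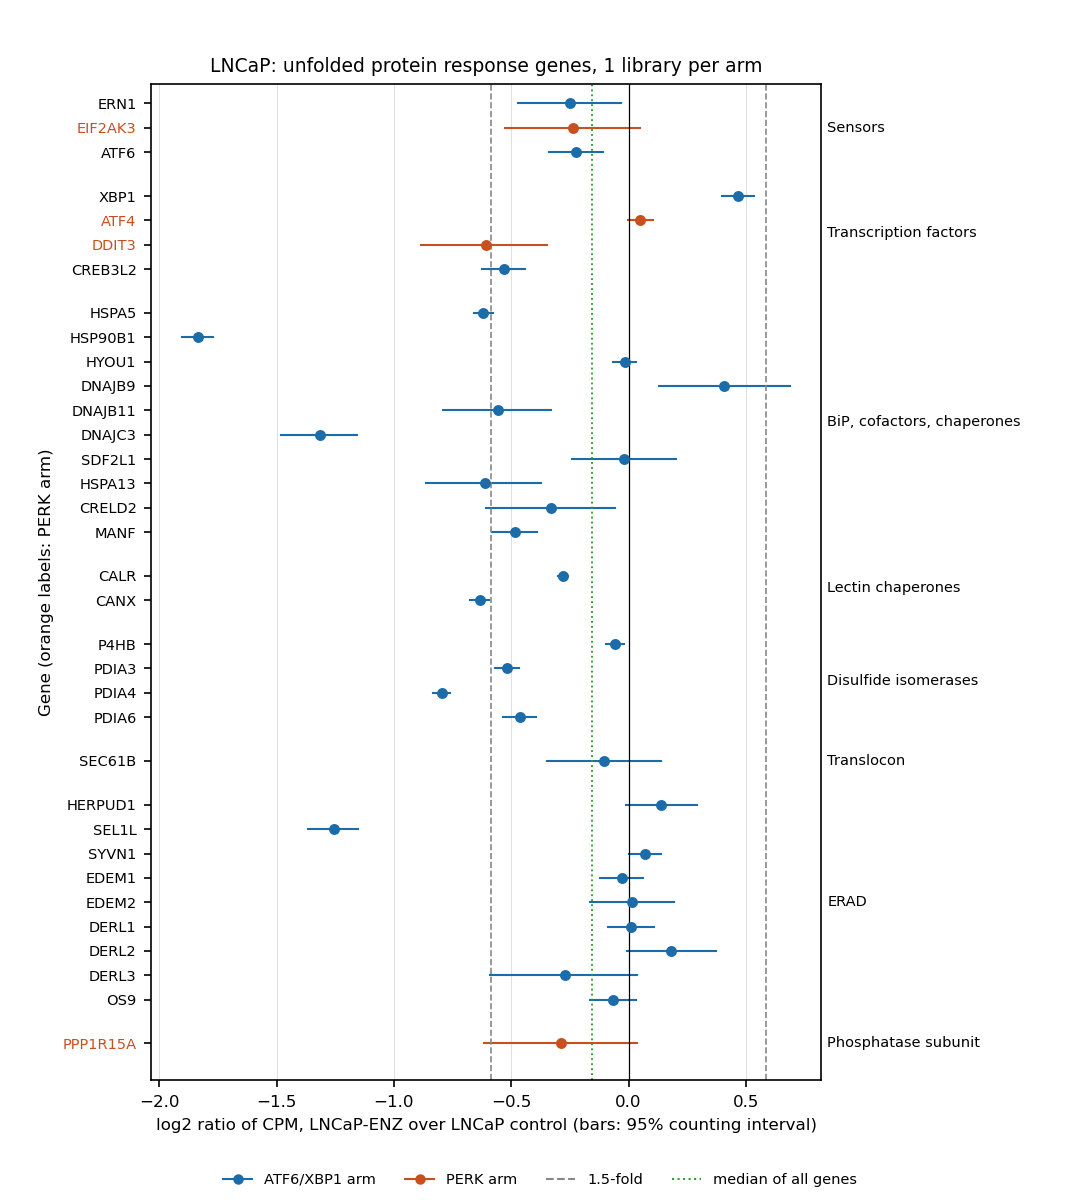
Log2 ratio of CPM in LNCaP-ENZ over control for the 34 genes by role, with 95% counting intervals as bars, dashed lines at 1.5-fold and a dotted line at the median of all genes (-0.15). *HSP90B1*, *DNAJC3* and *SEL1L* lie between -1.84 and -1.26, the degradation genes other than *SEL1L* lie near 0, and *XBP1* and *DNAJB9* lie above 0.

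The chaperones carried the largest differences. *HSP90B1* (chr12:104324112-104341708, plus strand, GRCh37) had 9207 counts in control and 2258 counts in LNCaP-ENZ, which was 449.8 and 126 CPM and a log2 ratio of -1.84 (interval -1.91 to -1.77). It was 3.57-fold lower. In bulk RNA, fewer cells with a transcript and less RNA per cell cannot be told apart. *DNAJC3* (chr13:96329393-96447243, plus strand) had 1197 and 421 counts (-1.31, interval -1.48 to -1.16). *HSPA5* had 13628 and 7780 counts (-0.62, interval -0.66 to -0.58), close to the 1.5-fold line, and *HSPA13* 381 and 218 counts (-0.61, interval -0.86 to -0.37). The chaperone median was -0.52, with 9 of 10 genes below 0. Of these, *HYOU1* and *SDF2L1* were above 0 with TMM, and *SDF2L1*, *DNAJB11* and *HSPA13* after the GC correction. *DNAJB9* was the exception, at 200 and 233 counts (0.41, interval 0.13 to 0.69). *HYOU1* with 7181 and 6223 counts was level at -0.02 (interval -0.07 to 0.03) with library totals and at 0.13 with TMM.

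All 4 disulfide isomerases and both lectin chaperones were below 0 with intervals that did not include it, except that *P4HB* was above 0 with TMM scaling (0.088, interval 0.050 to 0.12). *PDIA4* (chr7:148700154-148725782, minus strand) had 17840 and 9005 counts (-0.80, interval -0.83 to -0.76), and *P4HB*, at 12670 and 10667 counts, the smallest difference of the 4 (-0.06, interval -0.10 to -0.02). *CANX* had 13636 and 7708 counts (-0.63), and *CALR* 39456 and 28510 counts (-0.28). The differences of the 4 isomerases ranged from 1.04-fold to 1.74-fold lower.

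Degradation genes did not share this direction. With library totals, their median log2 ratio was 0.01 over 9 genes, and the intervals of 7 included 0. With TMM scaling only *SEL1L* (-1.11) and *DERL3* (-0.13) were below 0, and *DERL2* was the highest at 0.33. *SEL1L* (chr14:81937891-82000205, minus strand) was the exception with 2666 and 977 counts (-1.26, interval -1.37 to -1.15), while its ligase partner *SYVN1* had 3656 and 3365 counts (0.07, interval 0.002 to 0.14). *DERL2* was at 454 and 452 counts (0.18, interval -0.01 to 0.37). *SEL1L* and *SYVN1*, subunits of one complex, therefore had intervals that did not overlap. Median GC content was 41.8% for the chaperones and 47.1% for the degradation genes. The medians of all genes were -0.37 from 40 to 44% GC and -0.13 from 44 to 48%. The part of GC content in the difference between these classes was not tested. After the GC correction *SEL1L*, *DERL3* and *OS9* were the degradation genes below 0.

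The 3 sensors were slightly below 0 with library totals, but *ATF6* (0.20) and *EIF2AK3* (0.11) were above 0 after the GC correction, and all 3 were above 0 after a length correction (*ERN1* at 0.022). *ERN1* had 410 and 302 counts (-0.25, interval -0.47 to -0.03), *ATF6* 1405 and 1055 counts (-0.22, interval -0.34 to -0.11) and *EIF2AK3* 238 and 177 counts (-0.24, interval -0.53 to 0.05). *XBP1* (chr22:29190548-29196560, minus strand) was higher in LNCaP-ENZ, with 3094 and 3746 counts (0.47, interval 0.40 to 0.53), the highest ratio of the 34. The other genes with ERSE in their promoters, *HSPA5*, *HSP90B1*, *CANX*, *PDIA6*, *CRELD2* and *CALR*, were all below 0. In the PERK arm, *ATF4* had 6144 and 5581 counts (0.05, interval -0.001 to 0.10), *DDIT3* 316 and 181 counts (-0.61, interval -0.89 to -0.35) and *PPP1R15A* 191 and 137 counts (-0.29, interval -0.62 to 0.03). With library totals, only *DDIT3* of the 4 had an interval that did not include 0. With TMM scaling *ATF4* was at 0.20, *EIF2AK3* at -0.09, *PPP1R15A* at -0.14 and *DDIT3* at -0.46, so which intervals include 0 depends on the scaling.

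The number of members past the fold depended on the scaling, since the median of all genes moved from -0.15 to -0.01 with TMM and to 0 when it was set there. Under either scaling *HSP90B1*, *DNAJC3*, *SEL1L* and *PDIA4* remained lower past 1.5-fold and *XBP1* passed it on the higher side. Over all 14767 genes, 2621 were past it lower and 1601 higher with TMM, and 2564 and 1670 with the median set to 0. With TPM values 11 members were past it lower, beside 3971 of all genes. These included *CREB3L2*, *DNAJB11* and *PDIA3*, which were not past it with library totals. Across 12607 genes, which are not independent, the log2 ratio was higher at higher transcript GC content (Spearman rho 0.37) and lower at greater length (-0.26). Of 1728 genes with a GC content from 36 to 40%, 51.9% were past 1.5-fold lower, with a median of -0.61. *HSP90B1* (39.7% GC), *SEL1L* (39.3%) and *DNAJC3* (39.9%) belong to this class, and 1.68% of it had a lower ratio than *HSP90B1*. *XBP1* (41.5%) and *DNAJB9* (37.3%) were above 0 in classes whose medians were -0.37 and -0.61. After a GC correction the same 4 genes remained past the fold on the lower side, *HSP90B1* at -1.32, *DNAJC3* at -0.80, *SEL1L* at -0.72 and *PDIA4* at -0.80, and *XBP1* (0.88), *DNAJB9* (1.05) and *DERL2* (0.74) passed it on the higher side. Over all 12607 genes with this correction, 1489 were past the fold lower and 1339 higher, so the members' counts were near the background.

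**Figure D4:**
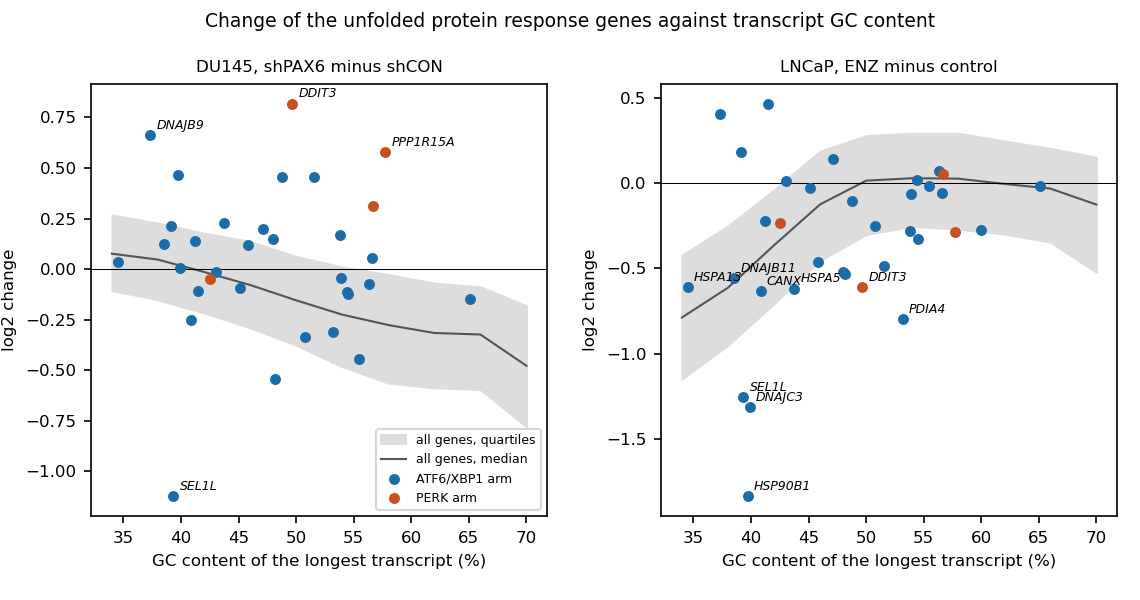
Log2 change of the members against the GC content of the longest transcript, for DU145 (left) and LNCaP (right), over the median (line) and quartiles (grey) of all genes in 4% classes. In LNCaP the median of all genes is -0.61 from 36 to 40% GC and 0.03 from 52 to 56%, and *HSP90B1*, *DNAJC3* and *SEL1L* lie under the grey band while *XBP1* and *DNAJB9*, the highest points on the right, lie over it.

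The 2 comparisons share no samples, and each is described on its own scale. Across the 33 genes tested in both, the Spearman rho between the DU145 log2 fold change and the LNCaP log2 ratio was 0.04. With library totals in LNCaP, values were negative in both for 11 genes and positive in both for 4 (*ATF4*, *DNAJB9*, *DERL2* and *HERPUD1*), while 14 were positive in DU145 and negative in LNCaP and 4 the reverse. Over all features, 8542 of 13574 were negative in DU145 and 9196 of 14767 in LNCaP. The LNCaP intervals of *ATF4*, *DERL2* and *HERPUD1* included 0. *SEL1L* was at -1.13 in DU145 (limma adjusted p = 0.139) and -1.26 in LNCaP. It was at -1.13 and -0.72 after the GC correction, and at -0.94 and -0.79 after the length correction. *HSP90B1* had opposite signs, 0.47 in DU145 and -1.84 in LNCaP, and *DDIT3* likewise, 0.82 and -0.61. By exact match, the medians of the 10 genes with ERSE or ERSE-II were 0.01 in DU145 and -0.30 in LNCaP. Those of the 21 other genes with a window were 0.04 and -0.24.

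**Figure D5:**
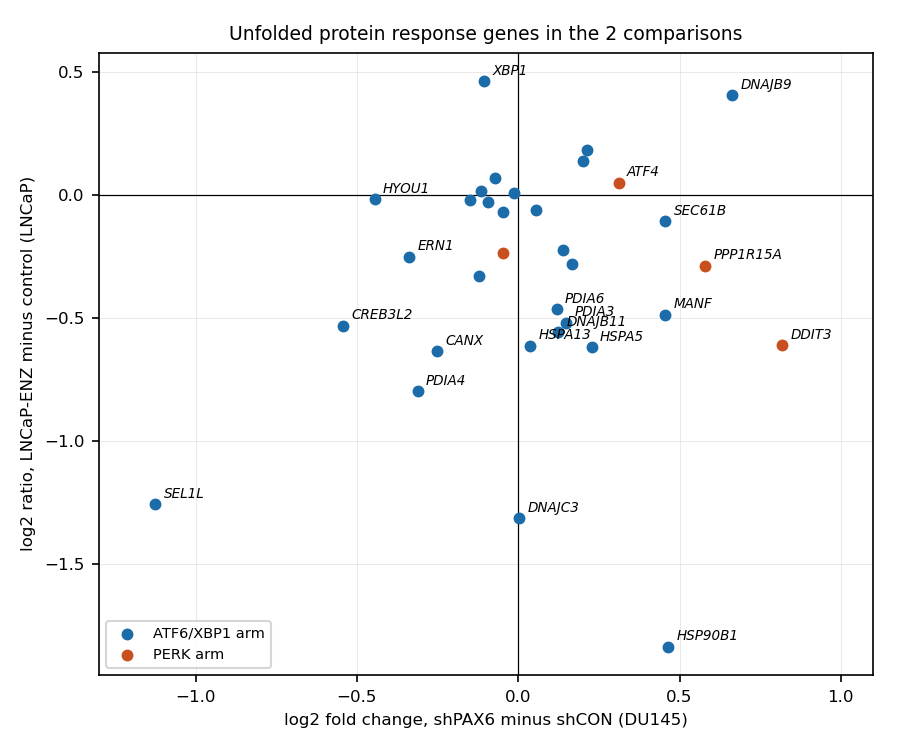
Log2 fold change in DU145 (shPAX6 minus shCON, horizontal) against log2 ratio in LNCaP (LNCaP-ENZ minus control, vertical) for 33 genes, by arm. *SEL1L* lies at the lower left at -1.13 and -1.26, *HSP90B1* at the lower right at 0.47 and -1.84, and *DNAJB9* at the upper right at 0.66 and 0.41.

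Several members share sequence or position with other genes. *HSP90B1* overlaps *UQCC6* on the opposite strand, and the processed copies *HSP90B2P* and *HSP90B3P* were counted 3 and 4 times, and 1 and 0 times, in the LNCaP libraries, few beside the counts at *HSP90B1*. *PDIA3P1* gave 12 and 2 counts. *SEL1L*, *PPP1R15A*, *XBP1*, *DNAJB9*, *DNAJC3* and *PDIA4* overlap no other protein-coding gene in the annotation.

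Another 5 lists of 101 genes covered the rest of the pathway, and none of the 98 tested in DU145 passed the adjusted threshold. Of these, 14 had shPAX6 libraries above and 8 below the shCON libraries, beside 6.70% and 20.0% of all features. Among the ATF4 and integrated stress response targets (20 genes, median 0.04), *CHAC1*, a glutathione-degrading enzyme, was at 22.5, 23.4 and 25.9 FPKM in shCON and 34.2, 26.6 and 33.5 FPKM in shPAX6 (log2 fold change 0.39, adjusted p = 0.230), and the stress protein gene *NUPR1* was at 0.652, 3.04 and 2.41 FPKM and at 0.423, 0.0697 and 0.170 FPKM (-2.65, adjusted p = 0.0923). These targets therefore lay on either side of no change, with 10 positive and 10 negative. Of 24 translocation and transport genes 18 were positive (median 0.13), among them the signal peptidase subunit *SEC11C* (0.55) and the translocon subunit *SEC61G* (0.46). Other folding genes gave a median of 0.10, other degradation genes -0.07 and other regulators -0.11, with *MBTPS1*, the protease that cleaves ATF6, at -0.62 (adjusted p = 0.231).

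In LNCaP, 24 of 98 genes on these lists were past 1.5-fold lower and 1 was higher, beside 24.1% and 6.49% of all genes, so that the lower count was near the background. The transport receptor *LMAN1* had 2261 and 827 counts (-1.26), *SEC11C* 404 and 149 counts (-1.24), the testis-type calnexin homologue *CLGN* 288 and 61 counts (-2.02) and the oxidase *ERO1B* 397 and 134 counts (-1.37). *SRPRB*, a subunit of the signal recognition particle receptor, was the gene past the fold on the higher side, with 1553 and 2343 counts (0.78). The medians were -0.04 for the ATF4 targets, -0.20 for translocation and transport, -0.12 for other folding genes, -0.04 for other degradation genes and -0.41 for other regulators. The cystine transporter *SLC7A11*, an ATF4 target, had 1006 and 390 counts (-1.17), and *ATF3* 806 and 346 counts (-1.03). After the GC correction these ratios were -0.60 for *LMAN1*, -0.75 for *SEC11C*, -1.37 for *CLGN*, -0.90 for *ATF3* and 0.86 for *SRPRB*, while *ERO1B* (-0.58) and *SLC7A11* (-0.43) were no longer past 1.5-fold.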

How the data were processed

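Poly-A RNA-seq libraries of LNCaP (1 control, 1 LNCaP-ENZ) and DU145 (3 shCON, 3 shPAX6) were used. According to the methods, the authors aligned reads to GRCh37 with HISAT2 (STAR is also named in the submitters' processing notes) and quantified with StringTie. The labels name 2 library kits without assigning them, and counting strand, annotation and versions are not given in the sources used here. The LNCaP table as deposited holds raw counts and TPM per gene. The DU145 table as deposited has no named unit and was read as FPKM from the methods and its column sums. ATAC-seq was not used here.

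Features averaging 0.5 FPKM or more over the DU145 libraries were tested on log2(FPKM + 0.1) by limma 3.58.1 in R 4.3.3 (trended variance, Benjamini-Hochberg adjustment over all 13574 features, threshold 0.05, no replicate block). The pseudocount understates changes of low genes. LNCaP was described by log2 ratios of CPM (pseudocount 0.1, minimum mean of 1 CPM) with exact binomial intervals, without a test. A member is higher or lower without overlap when all 3 libraries of one group exceed all of the other. Transcript GC content came from GENCODE, in the longest transcript. TMM used edgeR 4.0.16. Both procedures were tested on simulated data.

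Values in every library are given for the sensors, *XBP1*, *ATF4*, *DDIT3*, *HSPA5*, members called, members without overlap in DU145 and members past 1.5-fold in LNCaP, which came to 18 genes. In each other list the nameable genes were those ranked first and second each way in either comparison, and the text gives some of them. Other members named in the text were chosen after their values were seen. Members and lists were chosen with earlier results of these data known. *MARCH6* and *UFD1L* were read as older symbols of *MARCHF6* and *UFD1*. Alternatives covered pseudocount, filters, normalisation, array weights, GC content, length, the block and leaving out each library.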

Additional observations from a re-analysis of the deposited data

How the results depend on the processing

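The count of members that passed in DU145 (0 with limma, 5 at an unadjusted p under 0.05) became 1 with quantile normalization, 2 with the GC correction, 15 with array weights and 4 with the length correction (chosen after seeing the data), and 0 to 4 when 1 library was left out. The share of all features that passed was 1.74%, 1.85%, 33.7% and 7.59% in these 4 fits, and 0% to 6.78% when 1 library was left out. Members with shPAX6 higher without overlap (7) became 12 with the GC correction and 14 with the length correction (7 to 12 with 1 library left out), while the share of all features moved from 6.70% to 14.9% and 18%. Without shPAX6 1 and without shPAX6 2 they numbered 12, where the share of all features was 17% and 14.7%. Those lower without overlap (4) became 2 with quantile normalization, 2 with median centring and 1 with the GC correction (4 to 7), while the share of all features moved from 20.0% to 14.7%, 12.3% and 13.0%. Without shPAX6 1 they numbered 5 and without shPAX6 2 they numbered 7, beside 26.4% and 34.2% of all features. The ATF6/XBP1 median (0.003) became 0.040 with quantile normalization, 0.18 with median centring, 0.16 with the GC correction, 0.044 with array weights and 0.22 with the length correction (-0.021 to 0.12). The PERK median (0.45) became 0.62, 0.75 and 0.59 with median centring, GC and length corrections (0.40 to 0.51). Over all features, calls numbered 163 (24 higher), 236 with quantile normalization (74 higher), 100 with median centring (28 higher), 222 with the GC correction, 911 with the length correction and 4569 with array weights. The GC and length corrections covered 12009 features and the others 13574. They numbered 924 without shPAX6 1, 899 without shPAX6 2, 10 without shPAX6 3, and 0, 5 and 0 without shCON 1, 2 and 3.

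Replicate numbers did not pair the DU145 libraries (correlations of deviations -0.17, -0.37 and 0.05, with 1 of 6 libraries correlating best with its own number). With the number as a block, 0 features and 0 members passed (1568 features at an unadjusted p under 0.05), and with the block and the GC correction 7 features and 0 members passed. In the latter the members without overlap numbered 12 higher and 1 lower and the medians were 0.16 and 0.75, and the signs of *HSPA13* (-0.033), *KDELR1* (0.11), *SIL1* (0.084) and *HSPA1A* (0.10) were reversed, as with the GC correction alone.

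Other reversed signs in DU145 were *EIF2AK3* with quantile normalization (0.15), median centring (0.13), array weights (0.32) and the length correction (0.15), *XBP1* with median centring (0.069) and the length correction (0.013), *DNAJC3* with array weights (-0.0685), and *KDELR3* (0.017) and *KDELR1* (0.023) with median centring. With 1 library left out, *EIF2AK3* ranged from -0.31 to 0.40 (0.031 without shCON 1, 0.077 without shCON 3), *ATF6* from -0.069 to 0.35, *DNAJC3* from -0.27 to 0.22 (-0.11 without shCON 2), *HSPA13* from -0.34 to 0.43 (-0.032 without shCON 2) and *CANX* from -0.52 to 0.038. In LNCaP, *HSPA13* was at 0.17 after the GC correction, and TMM raised the members by 0.15 in the median. Members past 1.5-fold lower there (8) became 4 with TMM, with the median set to 0 and with the GC and length corrections (the last 2 chosen after seeing the data). They became 11 with TPM. Those higher (0) became 1, 1 and 3 with TMM, the median set to 0 and the GC correction. Over all 14767 genes the split was 958 higher and 3554 lower, 1601 and 2621 with TMM, 1670 and 2564 with the median set to 0, and 677 and 3971 with TPM. It was 1339 and 1489 of 12607 genes with the GC correction, and 1894 and 2122 of 14767 with the length correction. The cause of these changes was not tested. Depth is unknown in DU145, and 1 library per arm limits LNCaP.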

Other observations

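Cytosolic and mitochondrial heat shock chaperones, the folding machinery outside the endoplasmic reticulum, were summarised beside the unfolded protein response genes. In LNCaP, 3 of 13 genes tested were past 1.5-fold higher in LNCaP-ENZ and none lower, beside 6.49% and 24.1% of all genes, and the median log2 ratio was 0.16. The constitutive HSP70 gene *HSPA8* had 26550 counts in control and 48553 counts in LNCaP-ENZ (log2 ratio 1.06, interval 1.04 to 1.08). The inducible *HSPA1B* had 1085 and 1500 counts (0.66), whereas *HSPD1*, the mitochondrial chaperonin, had 5364 and 3140 counts (-0.58) and *HSP90AA1* 6675 and 4095 counts (-0.51). After the GC correction *HSPA8* was at 1.23, *HSPA1B* at 0.67 and *HSP90AA1* at -0.32, while *HSPD1* was at 0.000189. *HSPA1A* and *HSPA1B* are near-identical, and *HSPA1A* was given only 3 and 5 counts, so that the assignment of reads between them is uncertain. With 1 library per arm these are differences between 2 libraries.

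In DU145 none of the 14 heat shock genes passed the adjusted threshold with limma, and 1 did at an unadjusted p under 0.05, beside 1.20% and 18.3% of all features. *HSPD1* was at 137, 115 and 126 FPKM in shCON and at 143, 187 and 179.6 FPKM in shPAX6 (log2 fold change 0.42, adjusted p = 0.205). *HSPA8* was at 667, 685 and 535 FPKM in shCON and at 759, 748 and 761 FPKM in shPAX6 (0.27, adjusted p = 0.403), and its groups did not overlap either. *HSPB1* went the other way, with -0.59 and overlapping groups.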
